A study of Homo sapiens with 4 samples.

Results

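NOTCH2 and MAML1 encode a Notch receptor and a nuclear coactivator of Notch signalling. Their sites were taken as the intervals of the authors' final list that carry either gene symbol, together with every peak of the replicate lists that overlaps either gene body in hg19. This gave 5 of the 282 intervals shared by both replicates and 2 of the 117 gene symbols in the final list. It also gave 5 of the 719 peaks of replicate 1 and 3 of the 534 peaks of replicate 2. Over all 20136 protein-coding genes, 0.571% held a shared interval, 1.94% a peak of replicate 1 and 1.23% a peak of replicate 2. NOTCH2 and MAML1 were picked with these peaks known, so nothing is read from their having them.

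The data are iCLIP libraries, in which UV light fixes a protein to the RNA it touches before immunoprecipitation and sequencing. The cells were HEK293 T-REx, a human embryonic kidney line whose transgenes respond to doxycycline. In the F-MARF1ΔNYN group, 2 libraries, 100 ng/mL doxycycline for 12 h induced FLAG-tagged MARF1, and 20000000 cells were lysed. The sample labels name this protein by NYN alone, and that it lacks the NYN nuclease domain is taken from the methods of the study. The control group, also 2 libraries, consisted of HEK293 cells without a FLAG-tagged protein, and it is not stated whether they received doxycycline. All cells were irradiated at 254 nm with 400 mJ per square centimetre, and all lysates went through the FLAG immunoprecipitation. No label describes a change to the endogenous MARF1 gene in either group. The identity of the cells was not checked, because peak lists hold no expression levels. As a check of the transgene, MARF1 itself had 21 peaks in replicate 1 and 20 in replicate 2. They gave 18 shared intervals, of which 17 touched its coding sequence. The peak lists do not tell RNA of the transgene from RNA of the endogenous gene.

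Notch receptors are single-pass membrane proteins that are cut when a ligand on a neighbouring cell pulls on them. ADAM10 makes the outer cut and γ-secretase the inner one, and the freed intracellular domain moves to the nucleus, where it binds the DNA-binding protein RBPJ. MAML1, a Mastermind-like protein, clamps onto this pair and brings in the acetyltransferases EP300 and CREBBP, so that target genes such as HES1 are transcribed. NOTCH2 is therefore the start of the signal and MAML1 part of its last step. MARF1 is an RNA-binding protein with LOTUS and RRM domains, which hold RNA, and an NYN domain, which cuts it.

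NOTCH2, the receptor, lies on the minus strand of chromosome 1, from 120454176 to 120643366 (ENSG00000134250, hg19). Its main transcript has 34 exons and a 3'UTR of 3753 nt, which is 1.98% of the gene body. A single peak was called in each replicate, and both lay at the 3'UTR. The replicate 1 peak spanned 3254 bp, from 120454757 to 120458010, and the replicate 2 peak 3572 bp, from 120454649 to 120458220. The replicate 1 peak lies inside the replicate 2 peak, so that the shared interval has the bounds of the former. It starts 82 bases before the 3'UTR, in coding sequence and stop codon, and ends 581 nt short of the annotated transcript end. No other peak was found in the 189191 bp of the gene, whose remaining exons and introns hold most of its length. The 30 bases of the 3'UTR that hold both summits, the points of highest read pileup, are shown because they are where the replicates coincide best. They are read from hg19, minus strand, chr1:120456597-120456626, and the capitals mark the 21 bases from one summit to the other.
NOTCH2 summits: ttcttTCACACCGTGTGGTCCGTGTTactg

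The summit of replicate 1 lay 1308 nt after the stop codon of NOTCH2 and that of replicate 2 lay 1328 nt after it. Over all 282 shared intervals the median distance between the summits of the replicates was 49 bp, and 91 intervals (32.3%) had summits within 20 bp of each other. The 20 bp at NOTCH2 were below this median, although its peaks were the longest of both lists. At 34.9% and 35.4% of the length of the 3'UTR, the summits lay nearer to its start than the medians over shared peaks, 51.2% (181 summits in replicate 1) and 52.0% (176 in replicate 2). Both were still between the quartiles, 29.9 to 71.4% in replicate 1 and 31.4 to 71.5% in replicate 2.

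MAML1, the coactivator, lies on the plus strand of chromosome 5, from 179159823 to 179204284 (ENSG00000161021, hg19). Its main transcript has 5 exons and a 3'UTR of 2406 nt, which makes up 5.41% of the gene body. All of its peaks, 4 in replicate 1 and 2 in replicate 2, lay entirely within this 3'UTR. In the order of transcription, the replicate 1 peaks had their summits 646, 1106, 1628 and 2025 nt after the stop codon. The replicate 2 peaks had theirs at 934 and 1876 nt, each between a pair of replicate 1 summits. Each replicate 2 peak overlapped 2 replicate 1 peaks, and the 4 overlaps are the shared intervals. The 30 bases around each summit are shown because, unlike at NOTCH2, no summit of one replicate coincides with a summit of the other. They are read from hg19, plus strand, and the 10 bases in capitals are centred on the summit. In replicate 1 the windows are chr5:179202509-179202538, chr5:179202969-179202998, chr5:179203491-179203520 and chr5:179203888-179203917. In replicate 2 they are chr5:179202797-179202826 and chr5:179203739-179203768.
MAML1 replicate 1, peak 1: gttgactgcgTATGCCAAAAagggacagga
MAML1 replicate 1, peak 2: gacaacttctGCCACTCCCAtgtcagatga
MAML1 replicate 1, peak 3: atttctccttAAAACACCTTccctaccttt
MAML1 replicate 1, peak 4: gagatgacttTGCTTCTGTGcacagccccg
MAML1 replicate 2, peak 1: ccgttggcctTTCTGTCTGCctctccttcc
MAML1 replicate 2, peak 2: ctgcactccgCCTTAGTCCTggggccggcg

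The shared intervals of MAML1 were 119, 208, 173 and 125 bp long, with bounds at 179202492 to 179202610, 179202701 to 179202908, 179203428 to 179203600 and 179203720 to 179203844. They form 2 clusters of 2, one per replicate 2 peak, with gaps of 90 and 119 bp inside the clusters and 519 bp between them. From the first to the last base they span 1353 nt, or 56.2% of the 3'UTR. The first 613 nt after the stop codon and the last 440 nt of the transcript held no shared interval. Merged over gaps of at most 200 bp, a distance chosen after seeing the data, the intervals number 2.

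The summits of the replicates were farther apart at MAML1 than at NOTCH2. From each replicate 2 summit of MAML1 to the nearest summit of an overlapping replicate 1 peak it was 172 and 149 bp, where the median over the 250 replicate 2 peaks behind shared intervals was 38 bp. In intervals 2 and 4, which hold these replicate 2 summits, the replicate 1 summit fell outside the replicate 2 peak. With a reciprocal overlap of 50% as the condition for sharing, 0 of the 4 intervals of MAML1 were left, while that of NOTCH2 was kept. Over the whole list 140 of 282 intervals (49.6%) were left, so that such a loss is common here. The interval that came nearest, the second, covered 63.2% of its replicate 1 peak and 49.9% of its replicate 2 peak. Peaks covered 919 bases of the MAML1 3'UTR in replicate 1 and 858 in replicate 2, of which 625 were shared. The replicates thus overlapped in part at MAML1, with their summits at different positions.

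**Figure D1:**
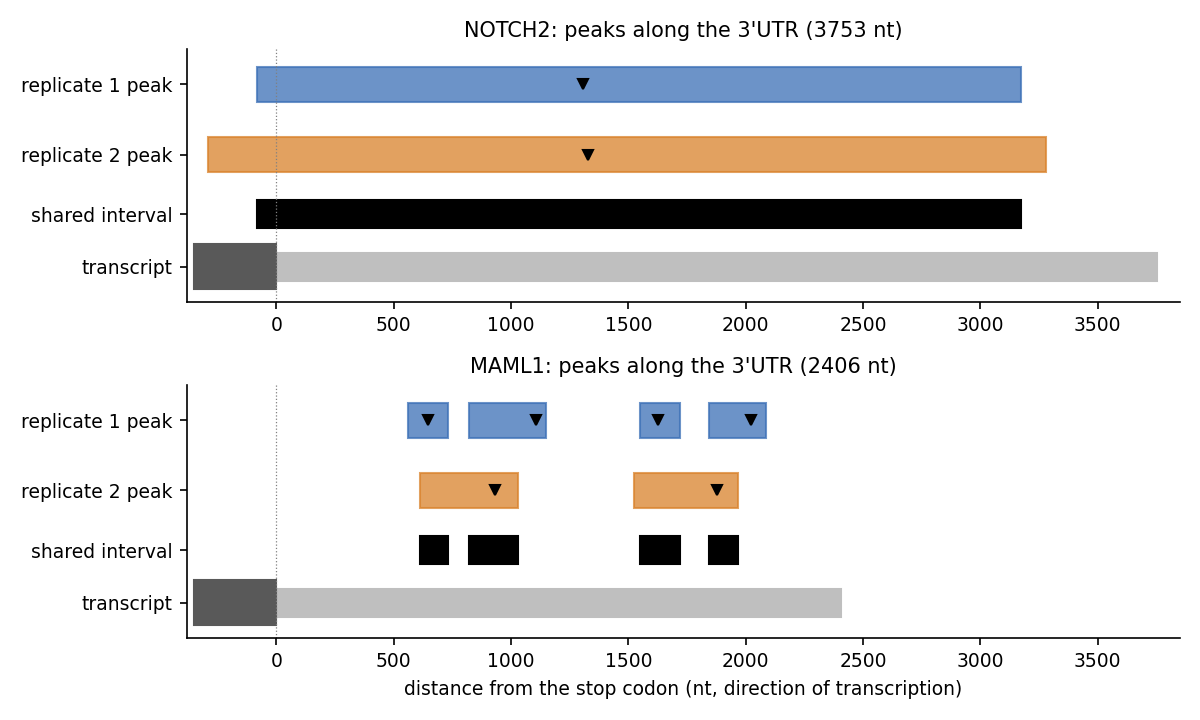
Peaks of replicate 1 (blue) and replicate 2 (orange) and shared intervals (black) along the 3'UTRs of NOTCH2 (3753 nt) and MAML1 (2406 nt), by distance from the stop codon in nt; the dark box is the end of the coding sequence and triangles mark summits. NOTCH2 has 1 long interval with summits 20 bp apart, and MAML1 has 4 short intervals in 2 clusters.

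By coverage, the shared interval of NOTCH2 took up 3172 bases of its 3'UTR, or 84.5%. The peak of replicate 1 alone covered 84.5% and that of replicate 2 covered 87.4%. For MAML1 the shared intervals covered 625 bases, or 26.0%, against 38.2% under the peaks of replicate 1 and 35.7% under those of replicate 2. The gap between the genes is far larger than the difference between the replicates of either. Among the 93 genes of the final list with a shared interval in the 3'UTR, the median was 6.33% (range 0.484 to 89.0%). NOTCH2 ranked 2nd, after KLHL15, and MAML1 ranked 14th.

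The NOTCH2 interval was the longest of the list, 1.89 times the next, where the median over all intervals was 120.5 bp. The genes with the next longest intervals were TXLNA (1723 bp), KLHL15 (1695 bp), LARP1 (1428 bp) and IGF2BP1 (987 bp), all of them in 3'UTRs by the authors' annotation. The longest interval of MAML1, 208 bp, was 15.6 times shorter than that of NOTCH2, and the 4 ranked 64th, 90th, 132nd and 143rd by length. At its longest interval KLHL15 had fold enrichments of 4.85 in replicate 1 and 4.86 in replicate 2, where TXLNA had 13.8 and 16.3. Long intervals were thus found at low and at high enrichment, with NOTCH2 at the high end.

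**Figure D2:**
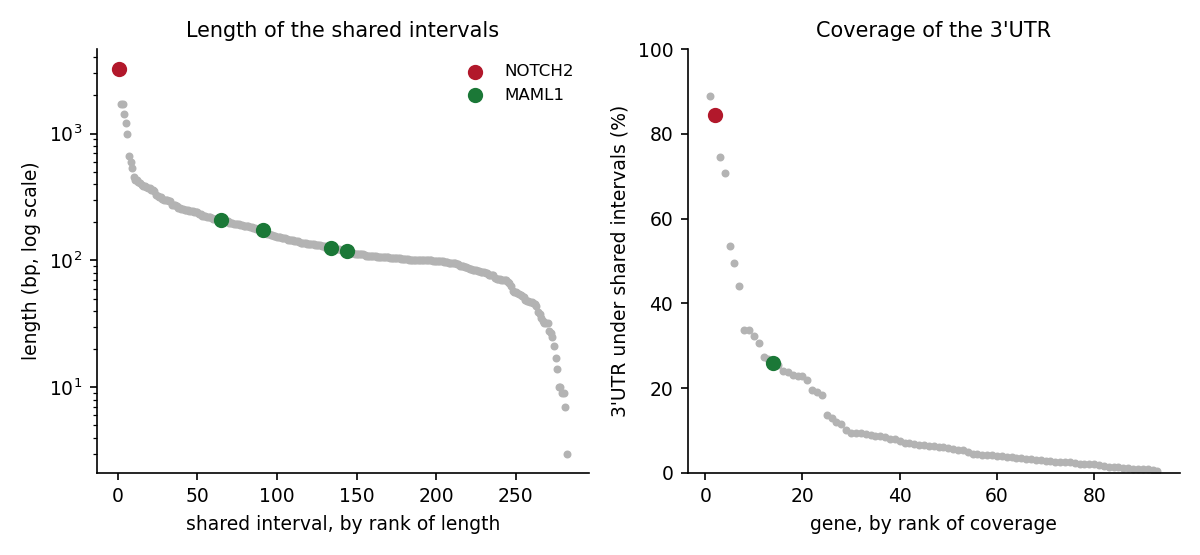
Left, the 282 shared intervals by rank of length, in bp on a log axis; right, the 93 genes by rank of the share of the 3'UTR under shared intervals, in percent. NOTCH2 (red) stands at 3254 bp and 84.5%, and MAML1 (green) at 119 to 208 bp and 26.0%.

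The peak caller gives each peak a fold enrichment, the reads at the summit over a local background estimated from the control, with 1 added to both. In replicate 2 the reads were first multiplied by 0.9507, which scales the F-MARF1ΔNYN library down to the depth of its control. The read numbers given below are those before this scaling. At NOTCH2 it was 23.6 in replicate 1 (q = 1.51e-42) and 19.4 in replicate 2 (q = 6.74e-42), the highest of both lists. The next highest values in the lists were 21.0 and 17.0. At MAML1 the replicate 1 peaks had fold enrichments of 7.68, 9.43, 7.96 and 5.37 in the order of transcription, and the replicate 2 peaks 10.1 and 14.3. The strongest MAML1 peak of replicate 1 belonged to the first cluster and that of replicate 2 to the second, so that the replicates put the clusters in opposite order. The weakest, the last peak of replicate 1, had q = 0.000113, and it ranked 545th of 719 by fold enrichment. By the lower of the replicate values the intervals of MAML1 ranked 94th, 35th, 82nd and 231st of 282. The median fold enrichment over all shared intervals was 7.33 in replicate 1 and 8.41 in replicate 2. In its own list, the second replicate 2 peak of MAML1 ranked 15th of 534 by fold enrichment. NOTCH2 ranked first in both lists, but the counting intervals of its fold enrichments, 16.6 to 32.7 and 14.4 to 25.8, hold the next highest values. The ranks of MAML1 differed widely between its sites and between the replicates.

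**Figure D3:**
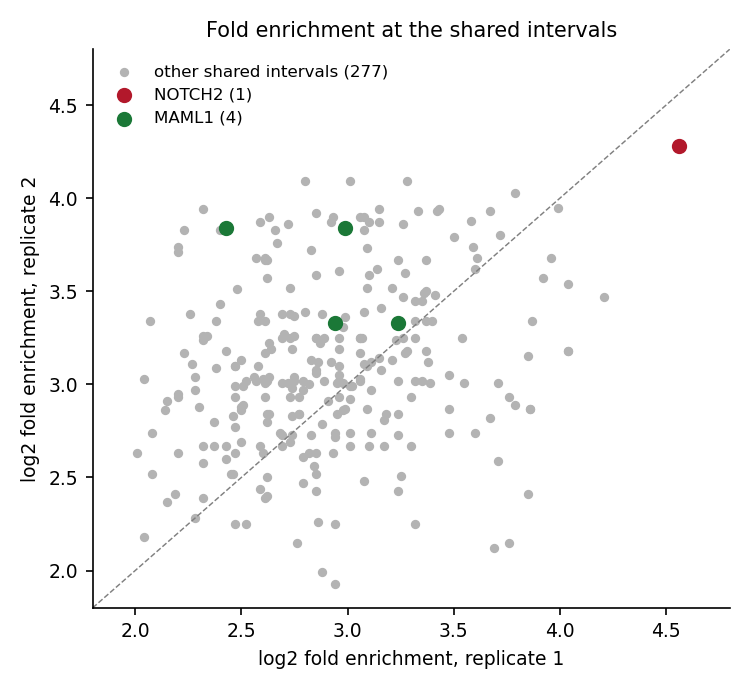
Fold enrichment at the 282 shared intervals on log2 scales, replicate 1 on the horizontal and replicate 2 on the vertical axis, with equal values on the dashed line. NOTCH2 (red, 4.56 and 4.28) lies apart from all others, and the 4 points of MAML1 (green) lie among the others.

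The whole number of reads at a summit and the local background can be solved from the fold enrichment and the Poisson p-value. Within 0.0005 of the −log10 p-value a solution was found for 719 of 719 peaks in replicate 1, and within 0.004 for 534 of 534 in replicate 2. It was the only one for 719 and 518 peaks, including all 8 peaks of NOTCH2 and MAML1, and elsewhere the closest was taken. At the NOTCH2 summit there were 34 reads in replicate 1 (95% Poisson interval 23.5 to 47.5) and 46 in replicate 2 (33.7 to 61.4). The intervals overlap, and like all those given here they cover counting error only. At MAML1 the replicate 1 summits had 11 reads (5.49 to 19.7), 16 (9.15 to 26.0), 14 (7.65 to 23.5) and 13 (6.92 to 22.2). Those of replicate 2 had 18 (10.7 to 28.4) and 23 (14.6 to 34.5). All 4 replicate 1 intervals overlap, and so do both of replicate 2, so that the sites of MAML1 could not be put in order by reads at this depth. The interval of the highest MAML1 peak met that of NOTCH2 only at its upper end. In replicate 1 it reached 26.0, where that of NOTCH2 began at 23.5, and in replicate 2 it reached 34.5 beside 33.7. Such an overlap does not show that the reads of the genes were alike, and their difference was not tested. Duplicate reads had been removed by position, which allows at most 100 reads per strand under a summit at the extension size of 100 bp.

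The depth of the libraries is not given. If the lowest background in each list is the genome-wide one for the default genome size of the peak caller, 2700000000 bp, the F-MARF1ΔNYN libraries held about 1470000 and 1640000 reads and the controls about 1830000 and 1560000. On this assumption, which the sources do not state, the NOTCH2 summit had 23.1 reads per 1000000 in replicate 1 and 28.0 in replicate 2. The highest summit of MAML1 had 10.9 and 14 reads per 1000000. For each gene the replicates were then closer than the genes were to each other.

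**Figure D4:**
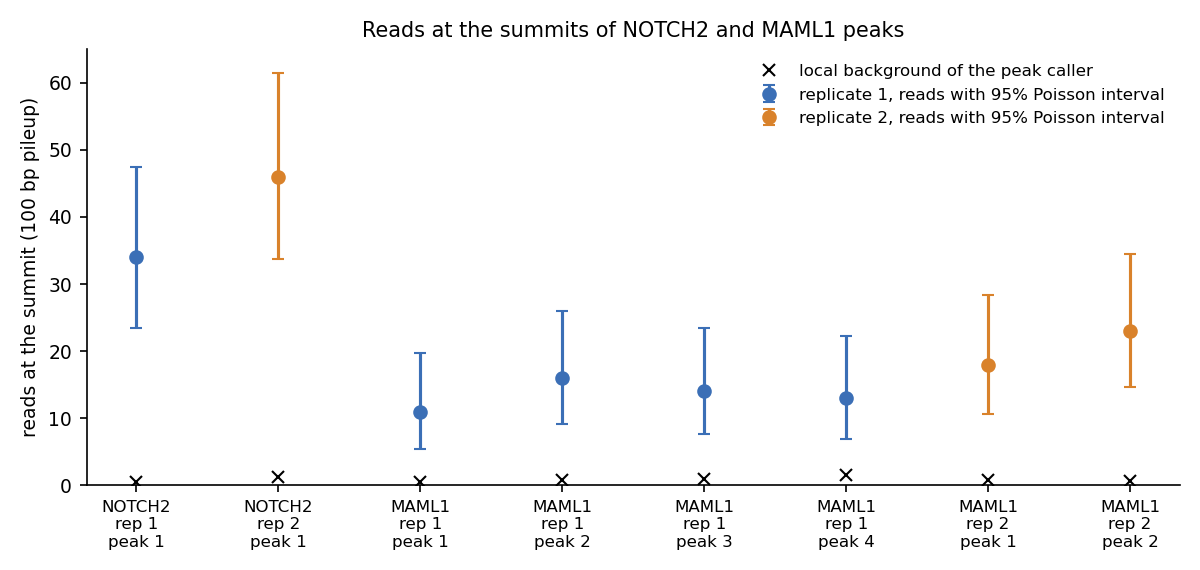
Reads at the summit of each NOTCH2 and MAML1 peak in replicate 1 (blue) and replicate 2 (orange), as 100 bp pileups with 95% Poisson intervals, and the local background of the peak caller (crosses). NOTCH2 reaches 34 and 46 reads and MAML1 11 to 23, all over backgrounds of at most 1.61.

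The control enters as the local background, given here in control reads per 100 bp after scaling to the depth of the F-MARF1ΔNYN library where that is smaller. At NOTCH2 it was 0.482 in replicate 1 and 1.3 in replicate 2, above the medians of 0.313 and 0.4 over the peaks of the lists. Within 100 bp of the NOTCH2 summit, the background allows 0 control reads in replicate 1 and at most 1 in replicate 2. At the MAML1 summits of replicate 1 the background was 0.562, 0.803, 0.884 and 1.61, which allows at most 0, 1, 1 and 2 control reads within 100 bp. At those of replicate 2 it was 0.8 and 0.6, which allows 0. The fourth replicate 1 peak of MAML1 thus had the highest background and the lowest fold enrichment of the 4. That background may rest on as few as 2 control reads within 100 bp, or on as many as 20 within 1000 bp.

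By reads alone NOTCH2 did not lead. Its summit ranked 11th, with a tie, of 719 peaks in replicate 1 and 3rd of 534 in replicate 2. The 11 other replicate 1 peaks with at least 34 reads had backgrounds of 1.61 to 7.23 and fold enrichments of 4.85 to 14.6. The 2 other replicate 2 peaks with at least 46 reads had a background of 5.0 and fold enrichments of 8.09 and 8.25. NOTCH2 thus combined one of the highest read numbers with a background below that of every other peak with as many reads. How abundant NOTCH2 and MAML1 mRNA were in these cells is not given by the peak lists, and its part in these values was not tested.

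**Figure D5:**
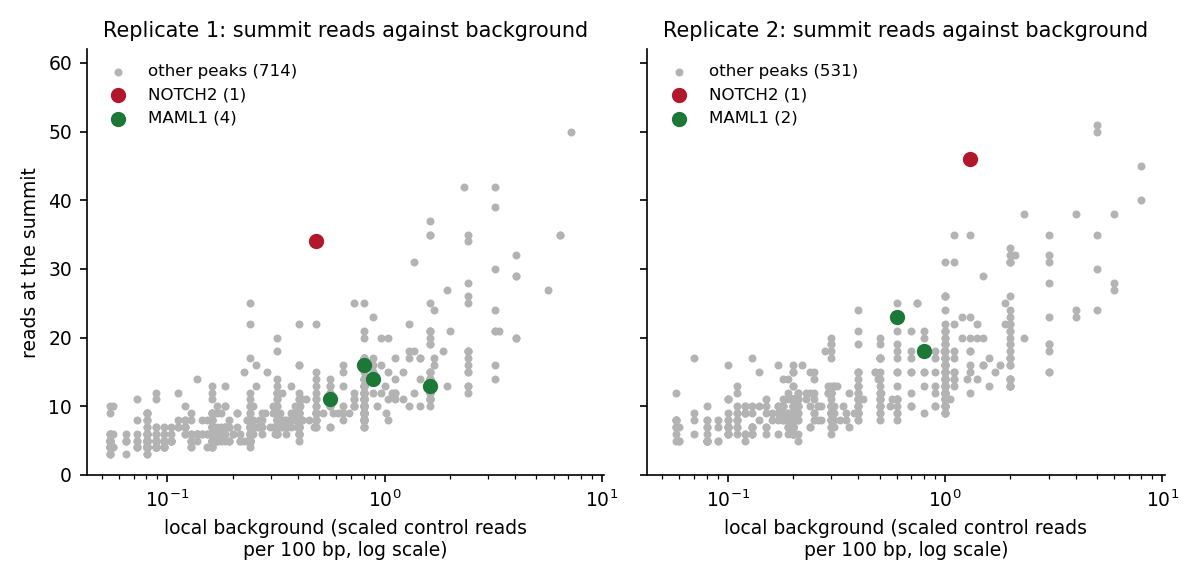
Reads at the summit against the local background, in scaled control reads per 100 bp on a log axis, for all 719 peaks of replicate 1 (left) and all 534 peaks of replicate 2 (right). NOTCH2 (red) lies above all peaks of similar background, and MAML1 (green) lies within the cloud.

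The genes nearest to NOTCH2 and to MAML1 were sought by the log2 fold enrichments of both replicates at the strongest shared interval. Strongest here means that the lower of the replicate values is the highest of the gene. At MAML1 this is the second interval, while the third had a lower value in replicate 1 (7.96) and a higher one in replicate 2 (14.3). The distance was Euclidean over these 2 values. For NOTCH2 they were TFRC (distance 0.66, fold enrichments 15.9 and 15.5), TXLNA (0.814), WEE1 (0.879), LNPEP (0.907) and IGF2BP1 (0.957). TXLNA and TFRC also had much of the 3'UTR under shared intervals, 74.6% and 70.9% beside the 84.5% of NOTCH2. They reached it with 5 and 6 intervals, the longest of 1723 and 668 bp, where NOTCH2 had 1. In WEE1, LNPEP and IGF2BP1 the coverage was 33.8, 27.4 and 32.2%. For MAML1 the nearest were MYC (distance 0.00799), HAUS6 (0.0877), E2F3 (0.11), LINC00657 (0.164) and NSD1 (0.187). The values of these 5 genes lay between 8.96 and 10.6 in replicate 1 and between 9.47 and 11.4 in replicate 2, around the 9.43 and 10.1 of MAML1.

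The peaks carry no strand, but 0 other annotated genes overlap the 3'UTR of NOTCH2 or of MAML1. The nearest peak outside NOTCH2 on chromosome 1 was 5934156 bp away in replicate 1, and the nearest outside MAML1 on chromosome 5 was 2435489 bp away. The methods of the study keep reads with as many as 10 mapping places, whereas its main text speaks of removing them if they map to several. The human genome holds partial copies of NOTCH2, the NOTCH2NL genes. The 4 NOTCH2NL genes of the annotation, which all lie at the same hg19 locus on chromosome 1, had 0 peaks. At 95% identity over at least 50 bp, the 3'UTR of NOTCH2 matched 0 other places in the genome, and so did that of MAML1. The final list also has a column for the gene of the nearest promoter, which names ADAM30 for NOTCH2 and LTC4S for MAML1, and which differs from the gene symbol at 190 of 282 intervals (67.4%).

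NOTCH2 and MAML1 have unlike 3'UTR sequences. An alignment found 0 similar stretches between them, and the longest run of identical bases was 14. In base composition, the shared interval of NOTCH2 had 40.8% G and C against 32.5% in the 581 bases of the 3'UTR outside it. The intervals of MAML1 had 52.3% against 44.3% in the other 1781 bases. In both genes the shared intervals were richer in G and C than the rest of the same 3'UTR, and those of MAML1 were richer than that of NOTCH2. At NOTCH2 the bases outside are all at the end of the 3'UTR, so that being outside the interval and lying at the end cannot be told apart. Of the bases in the MAML1 intervals 28.8% were C, against 20.3% outside, while G took 23.5% and 24.0%.

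The 100 bases at the summits differed between peaks of the same gene. At NOTCH2 they had 45.0% G and C and a predicted folding energy of -14.7 kcal/mol in replicate 1, and 44% and -20.9 kcal/mol in replicate 2. Of 366 windows tiled over its 3'UTR, 19.4% had more G and C than the former and 24.3% more than the latter. The median energy of these windows was -18.1 kcal/mol, between the values of the replicates. At MAML1 the replicate 1 windows had 52.0, 46.0, 47.0 and 51.0% G and C, near the median of 48.0% over 231 windows. The first replicate 2 window of MAML1 had 46.0% and the second 70.0%. The second also had the lowest energy, -40.2 kcal/mol, and 7.36% of the windows of the MAML1 3'UTR were lower. The energies at the other MAML1 summits were between -27.6 and -15.9 kcal/mol, on both sides of the median of -24.2. Over the peaks behind all shared intervals of annotated genes the median energies were -21.6 kcal/mol in replicate 1 (198 windows) and -21.3 in replicate 2 (193 windows). Neither gene had summits that all folded more, or all less, than the rest of its 3'UTR.

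Short motifs were counted on the transcript strand. TGTANATA, the element of Pumilio proteins, occurs at 2 places in the 3'UTR of NOTCH2, 1708 and 1838 nt after the stop codon, both inside the shared interval. MAML1 has 1, at 2104 nt, outside its intervals. ATTTA, the core of AU-rich elements, occurs at 7 places in NOTCH2, 4 of them in the interval, and at 2 in MAML1, 1 of them in an interval. Per 1000 bases of NOTCH2 there were 1.26 inside the interval and 5.16 outside, the latter from 3 copies. AAATT had 0.946 and 6.88 per 1000 bases, from 3 copies inside and 4 outside. AATAAA, the polyadenylation signal, had 0.946 and 3.44, from 3 copies inside and 2 outside. These A- and T-rich motifs were thus sparser inside the NOTCH2 interval than in the last stretch of its 3'UTR, though on few copies. MAML1 showed 1.6 per 1000 bases inside its intervals for each of the 3, from 1 copy each, and 0.561 to 1.12 outside.

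At the 8 summits of NOTCH2 and MAML1 peaks, 0 of the 100-base windows held AATAAA or the Pumilio element. Of the other motifs, ATTTA was in 2 windows and AAATT in 1, all at MAML1. In the windows of all shared peaks, TGTANATA was present in 3.54% in replicate 1 and 2.07% in replicate 2, AATAAA in 7.58 and 4.66%, ATTTA in 16.2 and 15.5%, and AAATT in 13.6 and 13.5%. The summits of NOTCH2 held none of the 4 motifs.

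The rest of the Notch pathway was described with a list of 62 other genes. A shared interval lay in 2 of them (3.23%), beside 0.571% of all protein-coding genes. A peak of replicate 1 lay in 3 (4.84%, beside 1.94%) and a peak of replicate 2 in 5 (8.06%, beside 1.23%), and 57 had none in either replicate. The list was drawn up with earlier results of these data known, so the shares are a description. Among the receptors, NOTCH1, NOTCH3 and NOTCH4 had no peak, and with so few genes in a class and so low a share over all genes, nothing is read from their having none. The 5 ligands, the 5 genes of receptor glycosylation and the 9 of receptor cleavage, ADAM10 among them, had none either. In the nuclear activator complex, RBPJ, MAML2, MAML3, EP300, CREBBP and the 3 other genes beside MAML1 had no peak. The 11 regulators of receptor endocytosis and ubiquitination had none. Reads that form no peak are not listed, so that binding under the threshold of the peak caller was not detectable in these genes.

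The genes of the list with peaks were transcriptional targets and corepressors. NRARP, a target of Notch that restrains the pathway in return, had its shared site near the end of its 3'UTR of 1953 nt, with summits 1829 and 1839 nt after the stop codon. Its fold enrichments there were 8.32 in replicate 1 (14 reads, 7.65 to 23.5) and 8.11 in replicate 2 (16 reads, 9.15 to 26.0). The former lies within the 5.37 to 9.43 of the MAML1 peaks in replicate 1, and the latter below their 10.1 and 14.3 in replicate 2. The NRARP summits were 10 bp apart, as against 172 and 149 bp at MAML1. Replicate 2 had 2 further peaks in the 3'UTR of NRARP, with fold enrichments of 6.48 and 8.58. The 30 bases that hold both summits are shown because NRARP is the one other Notch gene with a shared interval in its 3'UTR whose summits nearly coincide. They are read from hg19, minus strand, chr9:140194188-140194217, with the 11 bases from summit to summit in capitals.
NRARP summits: gggtgatcacTGCTAACTGGAtaaagtttg

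MYC, a growth regulator that Notch induces in some cell types, had 5 shared intervals in its gene body, of which 4 touched its coding sequence, where those of MAML1 touched none and that of NOTCH2 only its last 82 bases with the stop codon. The final list gives the symbol MYC to 6 intervals, and the one outside the gene body lies on chromosome 9. Of the 12 corepressors, which silence target genes in the absence of Notch signal, 0 had a shared interval. A replicate 1 peak lay in 1 of them (8.33%, beside 1.94% of all protein-coding genes) and a replicate 2 peak in 3 (25%, beside 1.23%). SPEN, which binds RBPJ, had a replicate 1 peak 279 nt after its stop codon with 4.5-fold enrichment (10 reads, 4.8 to 18.4). In replicate 2 it had peaks at its stop codon (5.73-fold, 11 reads) and 879 nt after it (8.17-fold, 17 reads), and the nearest peaks of the replicates were 160 bp apart. TLE3 and TLE4, Groucho-type corepressors, had 1 peak each, in replicate 2, with 10.5-fold and 7.02-fold enrichment (21 and 7 reads). All of these corepressor peaks touched the 3'UTR, as did every peak of NOTCH2 and MAML1. This is common here, since 93 of the 117 genes of the final list had a shared interval in the 3'UTR.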

How the data were processed

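Per the labels and the methods, trimming used Trimmomatic 0.32 and alignment to hg19 used STAR 2.3.0e; the authors discarded reads at over 10 places and removed secondary alignments (SAMtools 1.9) and duplicates (Picard 2.10.7). Peaks were called per replicate with MACS2 2.1.1 against the control of the same number, at an extension size of 100 bp and a false discovery rate of 0.05. The deposited lists hold a fold enrichment (a linear ratio), the −log10 of p-value and q-value, and a score. HOMER 4.10 annotated the intersection of both lists. Here that intersection (1 bp) was repeated and gave the deposited coordinates at 282 of 282 intervals. Reads at summits were solved from fold enrichment and p-value, a step checked on simulated peaks. Genes, exons and 3'UTRs came from GENCODE release 44 on GRCh37, folding energies from ViennaRNA 2.7.2 and sequence matches from blastn 2.17.0, with Python 3.11.15. No statistical test was run beyond the peak calling. The rule for named genes took NOTCH2, MAML1, Notch pathway genes with a peak, the 5 nearest by fold enrichment to each, the 5 with the longest intervals and MARF1; list genes without a peak, NOTCH2NL genes and neighbours are named outside it. The members and lists were chosen with earlier results of these data known. Alternatives were stricter q-values, a minimum fold enrichment, other overlaps and each replicate alone. Of the per-sample columns, 0 went unused.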

Additional observations from a re-analysis of the deposited data

How the results depend on the processing

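No paired analysis was possible because no result comes from a test between groups: peaks were called within numbered pairs, and reads can be solved only at their summits. Of 52 alternatives over 9 results, 39 left the value within a factor of 1.5 of the reported one, for counts, or within the spread between replicates, for coverage and fold enrichment. Some of the 39 could not have moved: NOTCH2 has 1 interval to merge or take a median over, and every peak of NOTCH2 and MAML1 lies past the stricter thresholds. The stricter q-values and the minimum fold enrichment of 4 changed no count or coverage of NOTCH2 or MAML1, and 5 kb added downstream changed neither count of peaks. A reciprocal overlap of 50% took the shared intervals of MAML1 from 4 to 0 and their coverage from 26.0 to 0.0%, since no pair of peaks overlaps by that much of both. Merging intervals at most 200 bp apart, added after seeing the data, gave 2.

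With a single replicate, peaks stand in for shared intervals. MAML1 then had from 2 to 4 intervals, from 2 to 4 peaks instead of 6, and a coverage of 35.7 to 38.2%. Its log2 fold enrichment at the strongest peak was 3.24 to 3.84. With both replicates it was 3.28, their mean at the interval whose lower replicate value was the highest. NOTCH2 had 1 peak instead of 2, by construction, and a coverage of 84.5 to 87.4%. Of the other Notch genes, from 3 to 5 had a site instead of 2. The median over the MAML1 intervals was 3.21 on the log2 scale. With 2 replicates and 11 to 23 reads per summit, differences between the MAML1 sites were not detectable.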
